A study of Mus musculus with 15 samples.

Results

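The 10 claudins described here are Cldn2, Cldn3, Cldn4, Cldn5, Cldn6, Cldn7, Cldn10, Cldn11, Cldn18 and Cldn23. They were chosen by gene symbol among the 44788 symbols of the deposited tables, with earlier results of these data known. They were followed in RNA from whole mouse stomach across development. All 10 were found, and all 10 reached the FPKM (a fragment count scaled for transcript length and for the mapped fragments of the library) of at least 1 at 1 or more timepoints that a symbol needed to be tested, as 16902 symbols did. The stomachs came from untreated C57BL/6 mice with no altered allele, and 1 library was sequenced at each of 15 timepoints. The fetal group holds the 7 daily timepoints from E12.5 to E18.5. The early postnatal group holds 5 timepoints, D1, D3, D5, W1 and W2, and the late postnatal group holds 3, W3, W6 and W8. D and W count days and weeks after birth. Per the methods of the study, stomachs older than W2 were taken from males and younger ones without regard to sex, so the late postnatal group also differs in sex, and age and sex cannot be told apart there. The study describes its replicates as pools of several stomachs at the younger fetal ages and as single stomachs after E18.5, without saying whether this holds for the RNA libraries too.

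Claudins are proteins with 4 membrane-spanning segments that form the strands of the tight junction, the belt that closes the space between neighbouring cells of an epithelium or endothelium. Some, such as claudin-3, claudin-4 and claudin-5, are known mainly for sealing this space, and others, such as claudin-2 and claudin-10, for forming pores that let small ions pass. Which claudins a cell makes therefore sets how tight its layer is and to which ions. Claudin-18 is the claudin best known from the adult stomach, where the gland epithelium must hold back acid, and claudin-6 is best known from embryonic epithelia.

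No timepoint had a replicate library, so the timepoints of a group stood as its replicates, and the spread within a group includes change with age. P-values measure only the spread between these 15 libraries. Group differences are log2 fold changes of FPKM + 1 with their SE from limma's moderated test, adjusted over the 16902 symbols, and an adjusted p under 0.01 counted as a call. The FPKM of all genes drifted with age. The median log2 fold change over all tested symbols was -0.22 for early postnatal against fetal, -0.42 for late against early postnatal and -0.62 for late postnatal against fetal, and values for late postnatal against fetal are also given relative to the median of that contrast. The total of a library is not stated in the files, so depth is known only through the deposited confidence bounds. If these are Poisson bounds, 1 fragment was worth a median of 0.0518 FPKM. In whole-organ RNA, fewer cells of a type and less RNA per cell cannot be told apart.

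The claudin transcripts of the stomach went from a mixture led by Cldn6 to a set made up mostly of Cldn18. At E12.5, Cldn6 made up 34.2% of the summed FPKM of the 26 claudin symbols in the files, Cldn7 15.52%, Cldn4 8.43%, Cldn3 8.27% and Cldn18 2.61%. At W8, Cldn18 made up 86.4% and each of the 4 others less than 1%. The sum includes the entry Cldn25, at 36.4 FPKM at E12.5, which lies where RefSeq places Cldnd1. RefSeq does not give Cldn21, Cldn25 and Cldn26 by these names at their loci. Without these symbols Cldn6 made up 39.2% at E12.5 and Cldn18 92.2% at W8, an alternative chosen after seeing the data. The shares are ratios within a library and so do not depend on its scale. The sum of all claudin FPKM went from 286 at E12.5 over 539.8 at E16.5 to 318 at W8, while the members other than Cldn18 together went from 220.2 at E12.5 over 363 at E14.5 to 10.6 at W8.

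**Figure D1:**
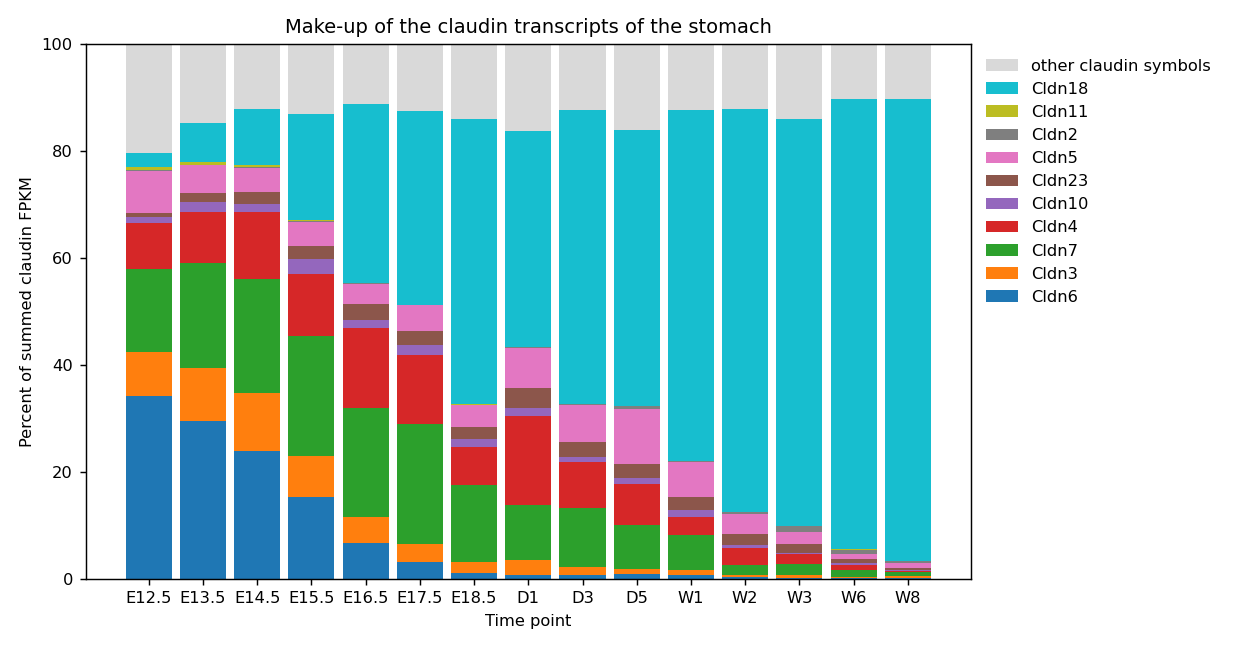
Percent of the summed FPKM of all claudin symbols (y axis) at the 15 timepoints (x axis), with 1 bar per library and 1 colour per claudin, stacked. The Cldn18 part widens from 2.61% at E12.5 to 86.4% at W8, and Cldn6 at the foot of the bars shrinks from 34.2% to 0.226%.

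The share of Cldn18 was 23.3% ± 18.4 (SD, n = 7 timepoints) in the fetal group, 57.6% ± 13.4 (n = 5) early after birth and 82.3% ± 5.42 (n = 3) in the late postnatal group. That of Cldn7 was 19.4% ± 3.23, 7.63% ± 3.65 and 1.43% ± 0.626 in the same groups (11.1%, 4.17% and 0.726% with only 1 of its 2 nearly equal entries), and that of Cldn6 was 16.2% ± 13.3, 0.691% ± 0.233 and 0.168% ± 0.0524. Cldn18 reached 53.4% at E18.5, stood at 40.4% at D1 and was between 51.6% and 86.4% at every later timepoint. No test was run on the shares, which depend on one another.

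Measured per length, the order of the members changed between the groups. In the fetal group the mean FPKM descended from Cldn18 (107) over Cldn7 (85.9), Cldn6 (64.4), Cldn4 (49.4) and Cldn3 (28.5) to Cldn5 (20.7). The ranges of neighbours overlapped along this part of the order, and Cldn18 lay above Cldn7 at only 3 of 7 timepoints. With 1 of its 2 entries, Cldn7 would stand below Cldn6 and Cldn4 in this order. In the early postnatal group Cldn18 (207) lay above the next, Cldn4 (29.0), at all 5 timepoints with no overlap. In the late postnatal group Cldn18 (283) again stood alone, and the next, Cldn7 (5.04), Cldn5 (4.95), Cldn4 (3.74), Cldn23 (3.27) and Cldn2 (2.69), had overlapping ranges. Cldn5, like Cldn7, is a sum of 2 nearly equal entries. With 1 entry each, both would stand below Cldn4, Cldn23 and Cldn2 in the late order.

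Across the 3 age groups 7 of the 10 claudins passed limma's moderated F test at an adjusted p under 0.01, beside 67.9% of all tested symbols, so that the share of claudins was close to the background. In late postnatal against fetal stomach 7 members were called lower and 1 higher, beside 54.6% of all symbols called lower and 10.6% called higher. The median log2 fold change of the 10 members was -2.20 in this contrast, against -0.62 over all symbols. For the 9 other claudins tested it was -0.28. The members were chosen with earlier results of these data known, so their counts and median describe a chosen list and not claudins in general. Every late value lay below every fetal value for 7 members (52.8% of all symbols) and above it for Cldn2 and Cldn18 (10.5% of all symbols). When the libraries were scaled by median ratios, which sets the median of all genes near 0, 6 members were called lower (25.7% of all symbols) and 2 higher (28.2%). No member changed direction in this contrast under any alternative that was run.

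In early postnatal against fetal stomach 3 members were called lower and 0 higher, beside 30.6% and 10.8% of all symbols. The 3 were Cldn3, Cldn6 and Cldn7. In late against early postnatal stomach 4 were called lower and 1 higher, beside 28.9% and 2.57%. These were Cldn4, Cldn5, Cldn7 and Cldn10 on the lower side and Cldn2 on the higher. The early and late comparisons share the early postnatal libraries. The late comparison rests on 3 late libraries, and its calls came to 2 in all without W6, both lower, to 3 without W8, and to 2 when W3 was counted with the early postnatal group. Calls over all symbols dropped as well, from 4877 lower and 435 higher to 1359 and 169 without W6, 3014 and 273 without W8, and 2436 and 132 with W3 moved.

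**Figure D2:**
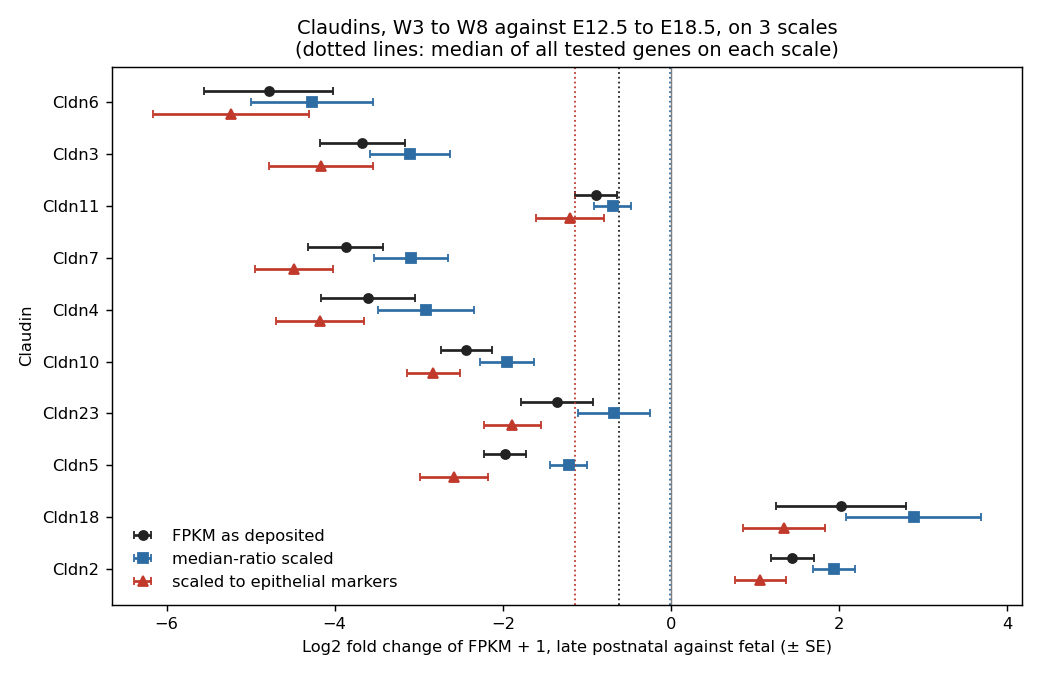
Log2 fold change of FPKM + 1 with its SE (x axis) of each claudin (y axis), W3 to W8 (n = 3) against E12.5 to E18.5 (n = 7), on the deposited scale, after median-ratio scaling and after scaling each library to its epithelial markers, and the median of all tested genes on each scale as dotted lines. Cldn18 and Cldn2 lie to the right of 0 on all 3 scales, and the 8 others to the left.

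Cldn6 encodes the claudin of embryonic epithelia and of pluripotent cells. Its gene lies on the plus strand of chromosome 17 (GRCm38, chr17:23679348-23682446), with 137 bp between its end and the gene of its close relative Cldn9 on the other strand. Since Cldn6 led the claudins of the earliest timepoints, the 250 bases before its RefSeq start site (GRCm38.p6, chr17:23679115-23679364, plus strand) are shown. Capitals mark a TGACGTCA, the letters of a cAMP response element, whose first base lies 40 bases before the start, and 2 matches of the GC box GGGCGG, here as its reverse complement, which begin 140 and 8 bases before it.
Cldn6 promoter: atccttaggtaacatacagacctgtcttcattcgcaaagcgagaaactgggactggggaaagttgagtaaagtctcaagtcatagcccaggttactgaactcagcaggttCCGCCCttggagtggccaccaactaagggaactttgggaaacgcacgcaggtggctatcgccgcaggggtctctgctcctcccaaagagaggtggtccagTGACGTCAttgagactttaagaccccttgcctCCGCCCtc
Of all 32817 RefSeq promoter windows of the same length, 1.55% hold a TGACGTCA and 32.7% a GGGCGG on either strand. The motifs were picked after the sequences had been seen, and a match is a description of the letters only.

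The FPKM of Cldn6 was 97.9 at E12.5, 115 at E13.5, 113 at E14.5, 70.8 at E15.5, 35.7 at E16.5, 14.51 at E17.5 and 4.32 at E18.5. After birth it was 3.04 at D1, 2.74 at D3, 2.88 at D5, 2.32 at W1 and 1.24 at W2, and then 0.574 at W3, 0.425 at W6 and 0.720 at W8. Most of this decline lay before birth: from E16.5 Cldn6 stayed below 50% of its highest value and from E18.5 below 10%. The groups did not overlap at either step, and the log2 fold change was -3.68 ± 0.65 (SE, limma adjusted p = 0.000531) for early postnatal against fetal and -4.79 ± 0.77 (adjusted p = 5.26e-05) for late postnatal against fetal, or -4.17 relative to the median of all genes. The difference between the early and late postnatal groups, -1.10 ± 0.81, did not pass the test (adjusted p = 0.26). In an ordinary linear model on untransformed FPKM both calls against fetal were lost. The adjusted p of that model was 0.0166 for the early and 0.0235 for the late postnatal group. At W3 to W8 the level rested on few fragments, about 11.4, 11.2 and 19.2 if the bounds are Poisson. Cldn9, the neighbour, was measured at 1.45 FPKM at E12.5 and at 0 at W3 and W8, so it was far lower than Cldn6 and was called in the same direction (log2 fold change -0.79 ± 0.16, adjusted p = 0.000361).

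Cldn3 and Cldn4 encode sealing claudins of many simple epithelia that bind the same bacterial enterotoxin. Their genes lie 39279 bp apart on chromosome 5 (GRCm38, Cldn4 at chr5:134945123-134946934 on the minus strand, Cldn3 at chr5:134986214-134987476 on the plus strand). The FPKM of Cldn3 was 23.7, 38.5, 50.6, 35.9, 26.2, 16.3 and 8.51 from E12.5 to E18.5. It was 10.6, 5.80, 2.52, 2.83 and 1.40 from D1 to W2 and 1.89, 0.529 and 0.935 from W3 to W8. Cldn3 stood highest at E14.5 and stayed below 50% of that level from E17.5, a day after Cldn6. It was lower by -2.44 ± 0.43 on the log2 scale in the early postnatal group (limma adjusted p = 0.00051) and by -3.67 ± 0.50 in the late postnatal group (adjusted p = 1.37e-05, or -3.06 relative to all genes), each against fetal. An antisense gene, Wbscr25, overlaps Cldn3, and whether the counting used the strand is not given in the sources used here.

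Cldn4 was kept longer than its neighbour. Its FPKM was 24.1, 37.5, 58.5, 53.8, 81.0, 61.5 and 29.6 from E12.5 to E18.5, with the highest value at E16.5. It was 65.9 at D1, 33.3 at D3, 22.8 at D5, 11.2 at W1 and 11.9 at W2, and 7.21, 3.47 and 0.551 at W3, W6 and W8. The early postnatal values lay partly within the fetal range, and the difference of -0.94 ± 0.47 did not pass the test (limma adjusted p = 0.099). All 3 late values lay below all earlier ones, with a log2 fold change of -3.61 ± 0.56 against fetal (adjusted p = 3.96e-05, or -2.99 relative to all genes) and of -2.66 ± 0.59 against early postnatal (adjusted p = 0.00268). The second of these calls was lost under median-ratio scaling (adjusted p = 0.0104), without W6 (adjusted p = 0.013) and without W8 (adjusted p = 0.0182). The late share of Cldn4, 1.04% of all claudin FPKM, was 0.594% without W3. Over the 15 timepoints Pearson's r of log2(FPKM + 1) between Cldn3 and Cldn4 was 0.82, and that between Cldn3 and Cldn6 was 0.94. Both are descriptions over libraries that share their ages, as are all such coefficients here.

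The value of Cldn4 at D1 was more than 2 times that at E18.5 and stands beside other markers that were high in that library. The summed FPKM of 12 forestomach squamous markers was 15262 at D1, the highest of all libraries, and 8708 at E18.5 and 4978 at D3. The liver marker Alb stood at 461 FPKM at D1, against 14.6 at E18.5 and 25.8 at D3. Cldn23 was also high at D1 (15.2 FPKM) between 8.89 at E18.5 and 10.9 at D3. The part of these markers in the D1 values of Cldn4 and Cldn23 was not tested. Without D1, the early postnatal share of Cldn4 was 5.65% in place of 7.85%.

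Cldn7 encodes a claudin found along the sides of epithelial cells as well as at the tight junction, where it binds Epcam. A pair of nearly equal entries, one on chromosome 11 (GRCm38, chr11:69964779-69967886, plus strand) and one on an alternate scaffold, were summed. Its FPKM was 44.4, 76.4, 100.3, 104, 110.1, 106 and 59.6 from E12.5 to E18.5. A single entry gave 52.2, 55.2 and 53.4 at E15.5, E16.5 and E17.5. It was 40.8, 43.7, 24.5, 21.7 and 7.43 from D1 to W2, and 7.82, 4.64 and 2.68 from W3 to W8. All early postnatal values lay below all fetal ones (log2 fold change -1.75 ± 0.38, limma adjusted p = 0.00173), and so did the late ones (-3.87 ± 0.45, adjusted p = 3.61e-06, or -3.25 relative to all genes). Under the study's protein phases E17.5 and E18.5 join the early postnatal timepoints. There the first of these calls was lost (-1.28, limma adjusted p = 0.0324). The late values reached into the early postnatal range only through W2, and the difference of -2.12 ± 0.47 was called (adjusted p = 0.00278) on the deposited scale and not after median-ratio scaling (adjusted p = 0.0148). W6 and W8 each decided this call, since the adjusted p was 0.016 without W6 and 0.0174 without W8.

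Markers of the epithelium as a whole stood beside these values as follows. Epcam was measured between 85.5 and 138 FPKM in the fetal group and at 104, 75.5 and 78.1 at W3, W6 and W8, and Cdh1, which encodes E-cadherin, between 25.2 and 117 and then at 136, 132 and 149. Of 14 epithelial markers 6 were called higher and 1 lower in late postnatal against fetal stomach, beside 10.6% and 54.6% of all symbols. Their median log2 fold change was 0.84, against -0.62 over all symbols. Scaled so that every library had the same mean log2 level of these markers, Cldn6 was lower by -5.23, Cldn7 by -4.49, Cldn4 by -4.17 and Cldn3 by -4.17 in the late postnatal group, and all 4 passed the test (limma adjusted p of 0.00028, 6.61e-06, 3.34e-05 and 9.25e-05). On this scale the median log2 fold change over all 16902 tested symbols was -1.14, and 9184 were called lower and 812 higher. The make-up of the epithelium changed over the same ages. The summed FPKM of 14 glandular markers went from 403 at E12.5 to 281290.0 at W8. The 12 squamous markers of the forestomach summed to 76.1 at E12.5, 12253 at E17.5, 1304 at W6 and 21.6 at W8, so this epithelium was nearly absent from the W8 library. Its markers Krt5 and Lor were measured at 27.3 and 604 FPKM at W6 and at 1.26 and 6.49 at W8. Cldn4 was 3.47 at W6 and 0.551 at W8, whereas Cldn6 was 0.425 and 0.720. The part of the squamous epithelium in the claudin values was not tested. Without W8, 7 members were called in late postnatal against fetal stomach in place of 8, 6 of them lower and 1 higher. Calls over all symbols dropped as well, from 9230 lower and 1791 higher of 16902 to 8674 and 1470 of 16841.

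**Figure D3:**
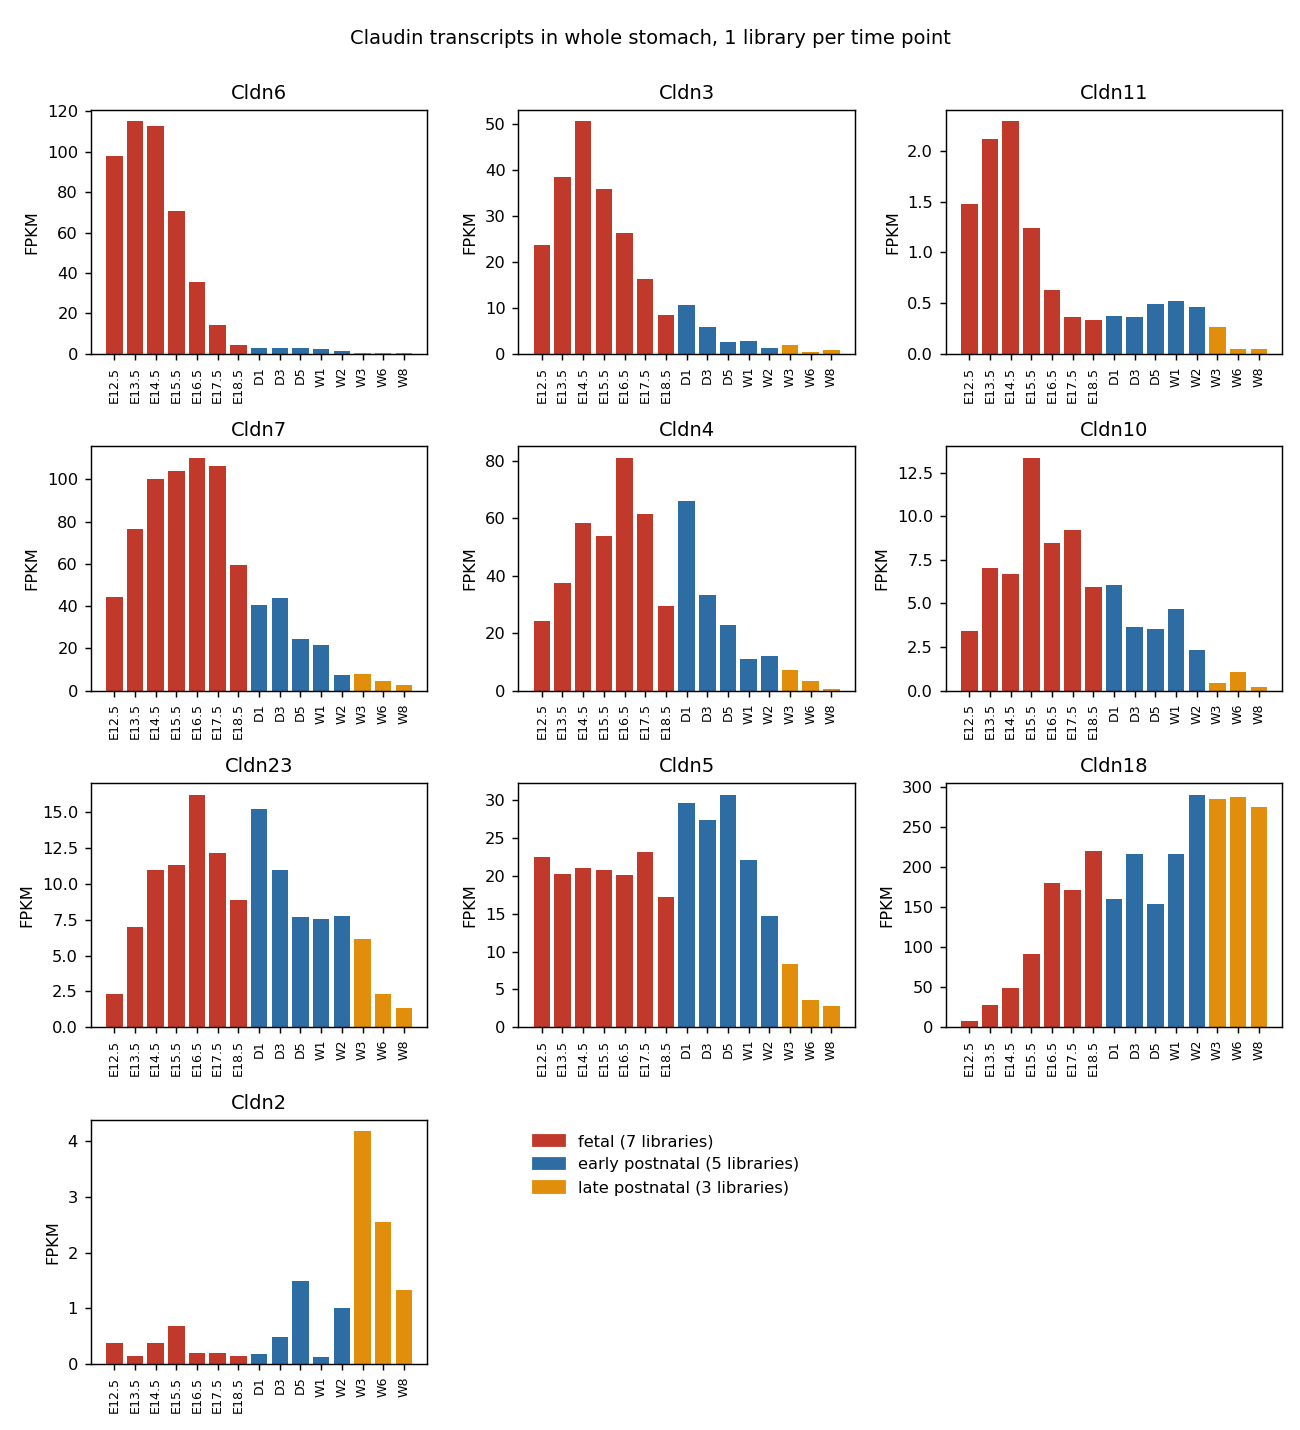
FPKM of each of the 10 claudins (y axis, from 0, with a scale of its own in each panel) at the 15 timepoints (x axis), with 1 bar per library coloured by age group. Cldn6, Cldn3 and Cldn11 have their highest bars from E13.5 to E14.5, Cldn7, Cldn4, Cldn10 and Cldn23 from E15.5 to E16.5, Cldn5 at D5, Cldn18 at W2 and Cldn2 at W3.

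Cldn18 was the most abundant claudin of the postnatal stomach. Its gene lies on the minus strand of chromosome 9 (GRCm38, chr9:99690796-99717267) and has 2 start sites, which give transcripts with different first exons. One form is known from stomach and the other from lung. The deposited value is per gene, so it does not separate them. Both windows of 250 bases before the start are shown, since the choice between them sets the form made. Capitals mark AGATAA, the letters of a GATA site, on either strand.
Cldn18 upstream start (GRCm38.p6, chr9:99717268-99717517, minus strand): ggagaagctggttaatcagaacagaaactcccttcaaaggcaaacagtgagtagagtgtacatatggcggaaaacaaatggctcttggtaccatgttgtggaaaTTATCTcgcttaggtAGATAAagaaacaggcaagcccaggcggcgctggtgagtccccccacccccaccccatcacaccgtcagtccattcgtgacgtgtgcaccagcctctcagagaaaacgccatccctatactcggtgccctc
Cldn18 downstream start (GRCm38.p6, chr9:99710064-99710313, minus strand): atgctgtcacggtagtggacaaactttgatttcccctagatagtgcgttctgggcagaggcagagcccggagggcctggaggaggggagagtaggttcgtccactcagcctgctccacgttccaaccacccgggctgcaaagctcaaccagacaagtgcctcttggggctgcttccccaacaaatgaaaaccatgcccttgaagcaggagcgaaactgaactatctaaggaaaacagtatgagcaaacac
The first window holds 2 matches, which begin 146 and 131 bases before the start, and the second holds 0 of the 5 motifs searched. AGATAA occurs in 9.99% of all promoter windows. Of 6 lung markers, Sftpc, Sftpb, Sftpa1 and Nkx2-1 were measured at no more than 0.0985 FPKM in any library, while Sftpd reached 6.07 FPKM at W2 and Scgb1a1 19.3 at W6. The part of lung RNA in the Cldn18 values was not tested.

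The FPKM of Cldn18 was 7.46 at E12.5, 28.2 at E13.5, 49.4 at E14.5, 91.8 at E15.5, 180.4 at E16.5, 172 at E17.5 and 220.1 at E18.5. It was 160.1, 216, 154, 216 and 290.2 at D1, D3, D5, W1 and W2, and 285, 288 and 275 at W3, W6 and W8. On the deposited scale the 3 late values lay close together and above all fetal values. The steepest part of the course lay between E12.5 and E16.5. After median-ratio scaling W3 stood at 74.2% and W8 at 80.4% of the highest value, that of W6. The log2 fold change for late postnatal against fetal was 2.02 ± 0.77 and missed the threshold on the deposited scale (limma adjusted p = 0.0279). Relative to the median of all genes it was 2.64, and it passed after median-ratio scaling, with 2.89 (adjusted p = 0.00569). It also passed with the study's RNA phases, which put E18.5 with the early postnatal timepoints (2.30, adjusted p = 0.00892). With the study's protein phases, which put E17.5 there as well, it passed too (2.62, adjusted p = 0.00209). So it did in an ordinary linear model on untransformed FPKM (adjusted p = 0.00474). It stayed short of the threshold under every other alternative that was run, and whichever timepoint was left out. Neither early postnatal against fetal (1.54 ± 0.66, adjusted p = 0.0558) nor late against early postnatal (0.48 ± 0.82, adjusted p = 0.632) passed. The fetal values spread from 7.46 to 220.1 FPKM, and this spread with age entered the error of all 3 contrasts. An antisense gene, Gm16004, overlaps Cldn18.

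Of 9856 other symbols that reached an FPKM of 10, Cdh1 had the pattern most like that of Cldn18 over the 15 timepoints (Pearson's r of log2(FPKM + 1) = 0.99), followed by Fermt1 (0.99), an adaptor of integrins in epithelia, and Clu (0.98). Against the mean log2 level of the 14 epithelial markers, Cldn18 stood at 0.32 ± 1.07 (SD, n = 7) in the fetal, 1.34 ± 0.23 (n = 5) in the early postnatal and 1.64 ± 0.04 (n = 3) in the late postnatal group. Scaled to those markers, its log2 fold change for late postnatal against fetal was 1.35 (limma adjusted p = 0.0209).

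**Figure D4:**
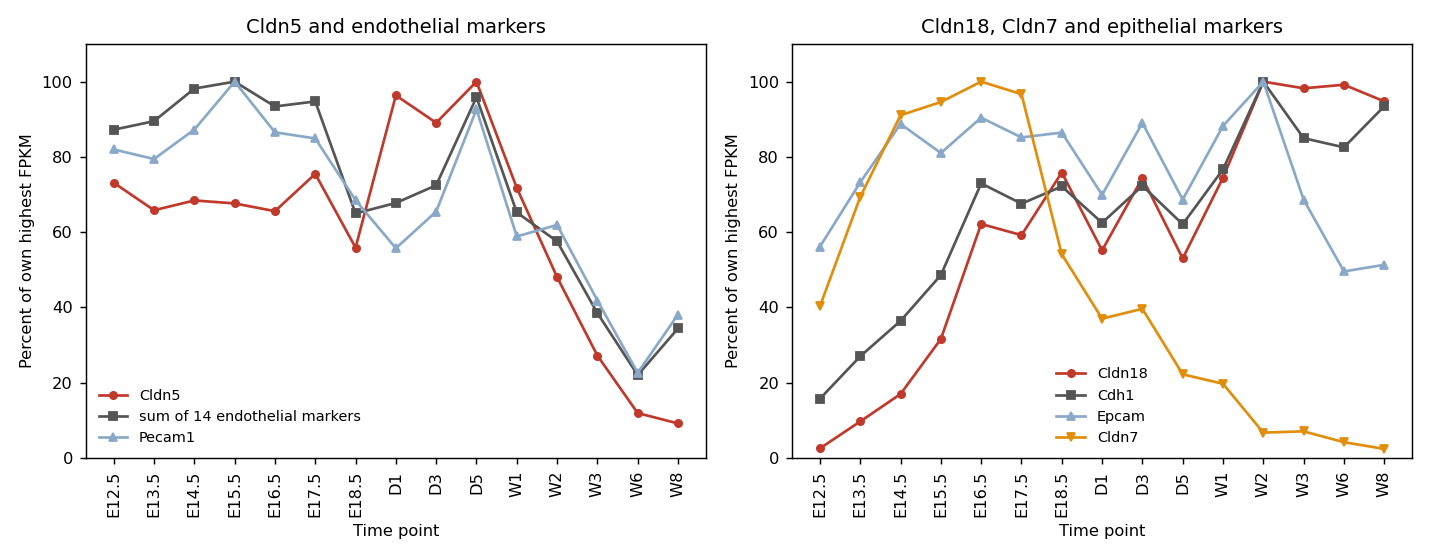
FPKM as a percent of each curve's own highest value (y axis) at the 15 timepoints (x axis), with Cldn5, Pecam1 and the sum of 14 endothelial markers on the left and Cldn18, Cldn7, Cdh1 and Epcam on the right. Cldn18 and Cdh1 both climb, from 7.46 and 25.2 FPKM at E12.5 to 275 and 149 at W8. The Cldn18 curve lies below that of Cdh1 from E12.5 to E17.5. Cldn7 goes from 110.1 FPKM at E16.5 to 2.68 at W8. The Cldn5 curve lies below the endothelial sum at every fetal timepoint, above it from D1 to W1, and below it again from W2 to W8.

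Cldn2 encodes the cation pore of leaky epithelia such as kidney proximal tubule and intestine, and was the only member called higher in late postnatal against fetal stomach on the deposited scale. Its gene lies on the X chromosome (GRCm38, chrX:139800808-139811386, plus strand). The fetal values ran from 0.137 over a median of 0.192 to 0.688 FPKM, the last at E15.5. The early postnatal values were 0.180, 0.483, 1.5, 0.126 and 1.01 from D1 to W2, and the late ones 4.18, 2.56 and 1.33 at W3, W6 and W8. Every late value lay above every fetal value (log2 fold change 1.44 ± 0.26, limma adjusted p = 0.000139, or 2.06 relative to all genes), and the late group was also called against the early postnatal one (1.15 ± 0.27, adjusted p = 0.00394), although D5 lay above W8. The second call was lost without W3 (adjusted p = 0.0223), without W6 (adjusted p = 0.0209), with a pseudocount of 0.1 (adjusted p = 0.0106) and after scaling to the epithelial markers (0.95, adjusted p = 0.077). With W3 counted as early postnatal, neither contrast was called (adjusted p = 0.0227 against fetal and 0.282 against early postnatal). Many of the low values rest on a handful of fragments, between 2.43 and 25.2 in the fetal group if the bounds are Poisson. Its level stayed far below that of Cldn18, at W3 as well, where it was highest. Markers of intestine, where Cldn2 is also made, summed to 105 FPKM at W3, 136 at W6 and 93.7 at W8, against 4.34 to 27.4 in the fetal group. Apoa4, Fabp2 and Vil1 made up most of this sum, while Cdx1 and Sis were at 0 in all 3 late libraries and Cdx2 at no more than 0.224 FPKM. The part of intestinal RNA in the Cldn2 values was not tested.

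Cldn10, whose 2 start sites give an anion and a cation pore, was a claudin of middle level in the fetus. The deposited value does not separate these forms, and an rRNA gene on the other strand overlaps the locus (GRCm38, chr14:118787871-118874525, plus strand). Its FPKM ran from 3.45 (E12.5) over a median of 7.02 to 13.3 (E15.5) in the fetal group, was 6.03, 3.63, 3.56, 4.70 and 2.33 from D1 to W2, and 0.456, 1.07 and 0.186 from W3 to W8. The late values lay below all earlier ones, with log2 fold changes of -2.43 ± 0.30 against fetal (limma adjusted p = 5.69e-06, or -1.82 relative to all genes) and -1.68 ± 0.32 against early postnatal (adjusted p = 0.00111). The limma call against early postnatal was kept after median-ratio scaling (adjusted p = 0.005). It was lost with a pseudocount of 5 (adjusted p = 0.0113), under quantile normalization (adjusted p = 0.0152) and with W3 counted as early postnatal (adjusted p = 0.0421). An ordinary linear model on untransformed FPKM did not give it either (adjusted p = 0.134). Early postnatal against fetal, -0.75 ± 0.25, missed the threshold (adjusted p = 0.0202) and passed without E12.5 (-0.90, adjusted p = 0.00455). The highest value stood in the E15.5 library, where 12 markers of exocrine pancreas summed to 63.2 FPKM, against 11.5 at E14.5 and 14.6 at E16.5, and Ctrb1 stood at 39.3. In the D3 library the same markers summed to 186 FPKM, and Cldn10 was 3.63. The part of pancreatic RNA in the Cldn10 value at E15.5 was not tested.

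Cldn23 is one of the less studied claudins. Its gene, on chromosome 8 (GRCm38, chr8:35824709-35826559, minus strand), was the only one of the 10 for which the RefSeq promoter table used here gave no match. The fetal FPKM ran from 2.30 (E12.5) over a median of 10.9 to 16.2 (E16.5), the early postnatal values were 15.2, 10.9, 7.68, 7.58 and 7.74, and the late ones 6.14, 2.31 and 1.37. The group means before and after birth were 9.82 ± 4.38 (SD, n = 7) and 9.84 ± 3.34 (n = 5), and the fitted difference was 0.10 ± 0.37 (limma adjusted p = 0.829). Its direction turned without E12.5 (-0.16), without D1 (-0.06) and after scaling to the epithelial markers (-0.35). The late postnatal group stood at -1.36 ± 0.43 against fetal, just short of the threshold (adjusted p = 0.0106). It was -0.74 relative to all genes and -0.68 after median-ratio scaling (adjusted p = 0.178). Without E12.5, the lowest fetal value, the difference was -1.62 (adjusted p = 0.000434), and without W3 it was -1.81 (adjusted p = 0.00313). Late against early postnatal, -1.45 ± 0.46 (adjusted p = 0.0169), also passed without E12.5 (adjusted p = 0.00332) and without W3 (adjusted p = 0.00621), and stood at -1.02 after median-ratio scaling (adjusted p = 0.0921). W2 and W3 stood at 7.74 and 6.14 FPKM.

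Cldn11, known as the tight junction protein of myelin and of Sertoli cells, was scarce throughout, and its highest values were, as for Cldn6, among the first timepoints. Its gene lies on chromosome 3 (GRCm38, chr3:31149920-31164326, plus strand). The FPKM was 1.47, 2.11, 2.29, 1.24, 0.628, 0.367 and 0.330 from E12.5 to E18.5, between 0.368 and 0.520 from D1 to W2, and 0.262, 0.0506 and 0.0530 from W3 to W8. The values at W6 and W8 correspond to about 1.99 fragments each if the bounds are Poisson. Late postnatal against fetal was called on the deposited scale (log2 fold change -0.89 ± 0.25, limma adjusted p = 0.00505), but the difference was only -0.28 relative to the median of all genes, and the call was lost under median-ratio scaling (adjusted p = 0.0129), without W6 (adjusted p = 0.0236) and without W8 (adjusted p = 0.0221). Among the 10 members Cldn6 was the one whose pattern was most like that of Cldn11 (r = 0.91).

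Cldn5 encodes the sealing claudin of blood vessel endothelium and had the narrowest fetal range of the 10 relative to its mean. As for Cldn7, 2 nearly equal entries were summed, the one placed on a chromosome at chr16:18776847-18778262 (GRCm38, plus strand). The fetal FPKM was 22.5, 20.2, 21.0, 20.8, 20.1, 23.2 and 17.2 from E12.5 to E18.5. It was 29.6, 27.4, 30.7, 22.0 and 14.8 from D1 to W2, and 8.36, 3.67 and 2.82 from W3 to W8. Early postnatal against fetal did not pass (log2 fold change 0.22 ± 0.21, limma adjusted p = 0.385), and its direction turned after scaling to the epithelial markers (-0.29) and with W3 counted as early postnatal (-0.02). The late values lay below all others (-1.97 ± 0.25 against fetal, adjusted p = 6.25e-06, or -1.36 relative to all genes, and -2.19 ± 0.26 against early postnatal, adjusted p = 0.000121). The difference between late and early postnatal stomach was called also after median-ratio scaling (-1.70, adjusted p = 0.000251).

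Endothelial transcripts went the same way. Of 14 endothelial markers, which do not include Cldn5, 13 were called lower and 0 higher in late postnatal against fetal stomach. Over all symbols 54.6% were called lower and 10.6% higher. The median log2 fold change was -1.30 for these markers and -0.62 over all symbols. After median-ratio scaling 8 markers were called lower and 0 higher, beside 25.7% and 28.2% of all symbols. Their summed FPKM ran from 190.4 to 293 in the fetal group, from 169 to 281 in the early postnatal and from 64.6 to 113 in the late postnatal group. Pecam1 was measured at 13.53, 7.32 and 12.3 and Cdh5 at 5.87, 2.50 and 4.85 FPKM at W3, W6 and W8. Set against the mean log2 level of these markers, Cldn5 was at 0.55 ± 0.10 (SD, n = 7) in the fetal, 1.01 ± 0.28 (n = 5) in the early postnatal and -0.14 ± 0.66 (n = 3) in the late postnatal group. Exact two-sided permutation tests over timepoints, adjusted over the 3 contrasts, gave a difference of 0.45 for early postnatal minus fetal (p = 0.0101, adjusted p = 0.025, 792 splits). The same exact test gave -1.15 for late minus early postnatal (p = 0.0357, adjusted p = 0.0357, 56 splits) and -0.69 for late postnatal minus fetal (p = 0.0167, adjusted p = 0.025, 120 splits), in both cases the smallest p these splits allow. None of the 3 was under 0.01, which the contrasts with the late group cannot reach. The 3 late values were 0.42, 0.03 and -0.86, so the W8 library was the lowest. The permutation tests treat libraries of successive ages as interchangeable, while the values went from 1.36 at D1 to -0.86 at W8. They cannot separate a step between groups from a course with age.

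The ages at which the members left their highest levels differed. Counted on the deposited scale, the timepoint from which a claudin stayed below 50% of its own highest value was E16.5 for Cldn6 and Cldn11, E17.5 for Cldn3, E18.5 for Cldn10, D1 for Cldn7, D3 for Cldn4, D5 for Cldn23 and W2 for Cldn5. For Cldn4 this age rests on the D1 library, since Cldn4 was at 36.5% of its highest value at E18.5, and without D1 the age would be E18.5. After median-ratio scaling this timepoint was unchanged for Cldn6, Cldn11, Cldn3, Cldn7 and Cldn4, and moved to D3 for Cldn10, to W6 for Cldn23 and to W3 for Cldn5. Cldn18 stayed above 50% of its highest value from E16.5 on the deposited scale. After median-ratio scaling its highest value stood at W6 instead of W2, and it was at 39.7% of this at E18.5 and 74.2% at W3. On that scale it therefore stayed above 50% only from a timepoint after E18.5. With 1 library per timepoint, the error of these ages is not known.

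**Figure D5:**
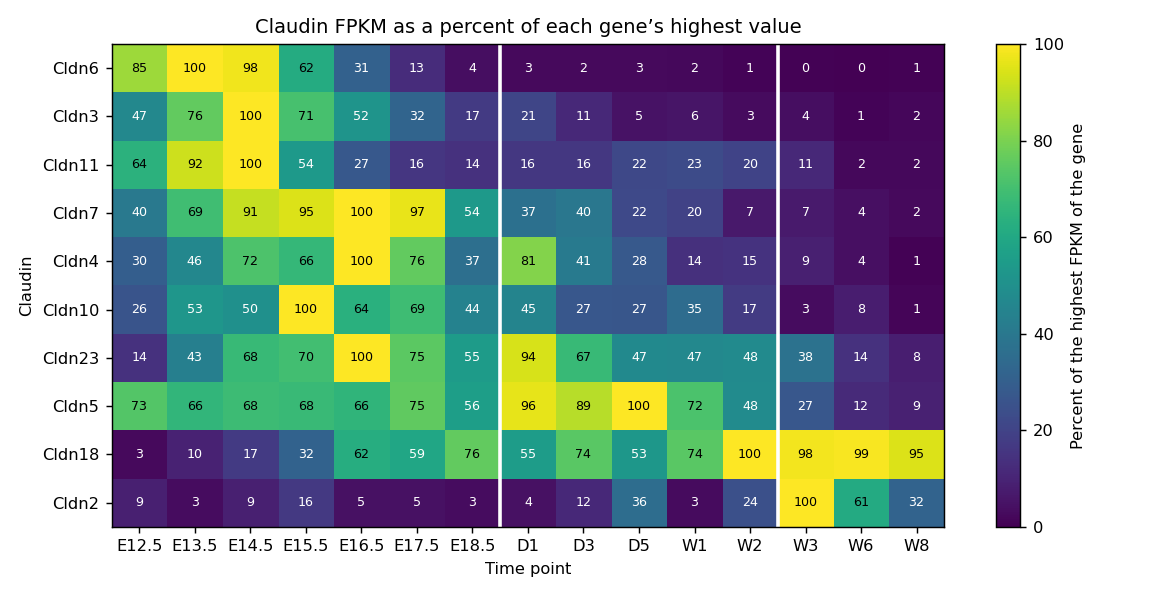
FPKM of each claudin (y axis) at the 15 timepoints (x axis) as a percent of its own highest value, shown by colour and printed in the cells, with white lines at birth and between W2 and W3. The bright cells shift from E13.5 for Cldn6 to W2 for Cldn18 and W3 for Cldn2.

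Among symbols that reached an FPKM of 10 at any age, those whose pattern over the 15 timepoints was most like that of Cldn6 were Pgf, a placental growth factor (Pearson's r of log2(FPKM + 1) = 0.99), and Zfp553 (0.99). For Cldn7 these were Fbln1 (0.99) and Lgi2 (0.98), with the imprinted RNA H19 in the third place (0.98). For Cldn4 they were Tyro3 and Bcam (both 0.97), for Cldn3 Igf2os (0.98) and for Cldn5 Manbal (0.98). The highest coefficients for Cldn2 (St3gal6, 0.89) were below those for every other member.

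Other genes of the tight junction were read the same way. Of 25 other claudin symbols listed, 15 were in the files and 9 were tested, and in late postnatal against fetal stomach 3 were called lower and 0 higher, with a median log2 fold change of -0.28 (-0.62 over all symbols). After median-ratio scaling 2 were called lower and 3 higher. Those called on the deposited scale were Cldn1, the claudin of the squamous barrier (4.0 FPKM at E12.5, 6.83 at D1 and 0.172 at W8, log2 fold change -1.55 ± 0.25, limma adjusted p = 5.22e-05), Cldn9 and the entry Cldn25. The last, at 36.4 FPKM at E12.5 and 19.9 at W8 (-0.55 ± 0.15, adjusted p = 0.00428, with the direction turned to 0.30 by median-ratio scaling), lies where RefSeq places Cldnd1, a claudin domain protein outside the classic family. Cldn12, at 10.4 FPKM at E12.5 and 7.43 at W8, was not called (-0.28 ± 0.11, adjusted p = 0.0335) and stood at 0.50 after median-ratio scaling.

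Of 13 other membrane proteins of the junction, 2 were called higher and 5 lower, with a median log2 fold change of -0.11, and 8 were called higher and 1 lower after median-ratio scaling. Lsr, which marks corners where 3 cells meet, was 28.6 FPKM at E12.5 and 104 at W8 (log2 fold change 1.23 ± 0.26, limma adjusted p = 0.000597), and Igsf5 was 2.49 and 38.8 (2.42 ± 0.43, adjusted p = 0.000144). Jam3 was 32.0 and 5.64 (-1.87 ± 0.21, adjusted p = 2.88e-06). Ocln, which encodes occludin, was between 6.72 and 20.9 FPKM in the fetal group and at 17.0, 12.1 and 16.2 at W3 to W8 and was not called (0.19 ± 0.26, adjusted p = 0.522).

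Of 19 scaffold and polarity genes tested, 3 were called higher and 9 lower, with a median log2 fold change of -0.38. After median-ratio scaling 8 were called higher and 4 lower. Over all symbols this scaling moved the share called lower from 54.6% to 25.7% and that called higher from 10.6% to 28.2%, so the shifts of these lists are read against that. Tjp1, which encodes ZO-1, was between 18.8 and 23.9 FPKM in the fetal group and at 11.5, 8.54 and 10.8 at W3 to W8, while Tjp3, which encodes ZO-3, was between 6.48 and 46.5 and then at 76.1, 74.0 and 73.8 (1.87 ± 0.47, limma adjusted p = 0.0022). Pard6g, a polarity adaptor, was 23.4 FPKM at E12.5 and 0.877 at W8 (-2.97 ± 0.27, adjusted p = 1.17e-06). The third list member called higher besides Tjp3 and Crb3 was Pard6a.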

How the data were processed

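RNA from stomachs, collected whole per the methods of the study, was sequenced after poly(A) selection. The authors deposited FPKM values with confidence bounds per gene entry, and no counts. The submitters' notes name Bowtie 0.12.2 and FastQC, the study's methods HISAT2 and StringTie, and which of these made the deposited values is not settled by the sources used here. Those methods also name liver as the RNA source, where the labels name stomach. Entries of a symbol were summed. Symbols reaching an FPKM of 1 were fitted with limma 3.58.1 in R 4.3.3 on log2(FPKM + 1) over all 15 libraries in 3 age groups, with Benjamini-Hochberg adjustment over all tested symbols. The script was tested on simulated data. Other settings were other scalings, pseudocounts, filters, groupings and tests, and leaving out each timepoint.

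The members and gene lists were chosen with earlier results of these data known. Beyond the members, the 3 genes per list called higher and the 3 called lower with the largest changes were eligible to be named, with any reaching an FPKM of 10, and the 3 most alike genes per member. Motifs and a few markers were picked after their values were seen. Promoters came from RefSeq (GRCm38.p6), with 9 of 10 members matched.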

Additional observations from a re-analysis of the deposited data

Results flagged for a closer look

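Of 52 group values tested for a sample standing apart from the rest of its group, 5 stood apart, where chance alone gives about 1 in 20. One was a claudin: Cldn2 at E15.5, with 0.688 FPKM, lay above the other fetal values, the next of which was 0.373 FPKM. The others were marker sums that stand beside claudin values in the report. The squamous markers summed to 15262 FPKM at D1 among the early postnatal timepoints, and the endothelial markers to 190.4 FPKM at E18.5 among the fetal ones. The markers of exocrine pancreas summed to 63.2 FPKM at E15.5 among the fetal and to 186 FPKM at D3 among the early postnatal timepoints. The group of 3 late postnatal timepoints was too small for this test.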

How the results depend on the processing

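The number of claudins called in early postnatal against fetal stomach (3), in late postnatal against fetal (8) and across the 3 age groups (7) stayed within 1.5 times under every alternative run, and came to 3 to 4, 7 to 9 and 7 to 8 when each timepoint was left out. That in late against early postnatal stomach (5) did not. It was 3 under median-ratio scaling and under scaling to the epithelial markers, 2 under quantile normalization and with W3 counted as early postnatal, 1 in a linear model on untransformed FPKM, and 2 (without W6) to 6 (without E12.5) when each timepoint was left out. Over all symbols the lower and higher calls of this contrast were 4877 and 435 as deposited, 1305 and 2112 under median-ratio scaling, 260 and 73 under scaling to the epithelial markers, 896 and 1376 under quantile normalization, 2436 and 132 with W3 moved, and 1243 and 483 in the linear model. The direction turned only in early postnatal against fetal stomach, for 2 members that were not called. For Cldn5 it was -0.29 after scaling to the epithelial markers and -0.022 with W3 counted as early postnatal. For Cldn23 it was -0.35 after scaling to the epithelial markers, and from -0.16 (without E12.5) to 0.23 (without E16.5) when each timepoint was left out. With 1 entry kept per symbol, the share of Cldn5 was 2.83% in the fetal and 3.83% in the early postnatal group, and that of Cldn7 was 11.1% in the fetal and 0.726% in the late postnatal group. The late share of Cldn18 was 92.9% of the 10 members alone, and 88.7% without 3 symbols (Cldn21, Cldn25 and Cldn26) that RefSeq does not give by these names at their loci, an alternative chosen after seeing the data. The cause of these shifts was not tested. A filter on a mean FPKM of 1 tested only 8 members. Over all symbols, late postnatal against fetal stomach gave 1791 higher and 9230 lower calls as deposited, 4758 and 4336 after median-ratio scaling, 3853 and 4835 after quantile normalization and 812 and 9184 after scaling to the epithelial markers. Early postnatal against fetal gave 1820 higher and 5170 lower as deposited, and 2875 and 2535 after median-ratio scaling. It gave 2361 and 3961 after quantile normalization and 595 and 946 after scaling to the epithelial markers. Across the 3 age groups 11472 symbols passed as deposited, 9760 after median-ratio scaling and 9218 after scaling to the epithelial markers. No paired analysis was possible because each timepoint had 1 library and the labels give no shared replicate numbers. With no counts deposited, depth limits the low values of Cldn2, Cldn10 and Cldn11 most.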

Other observations

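Cldn17, 1 of the 9 other claudins tested and called in none of the 3 contrasts, is singled out after its values were seen. It was at or near 0 from E12.5 to E15.5 (0.0522, 0, 0 and 0 FPKM). It stood at 1.87 at E16.5, 8.66 at E17.5, 8.54 at E18.5 and 9.63 at D1, and at 2.06, 0.486, 1.18 and 1.24 from D3 to W2. At W3, W6 and W8 it was 1.04, 0.134 and 0 FPKM. Its 3 highest values stood in the libraries in which the squamous markers summed to 12253, 8708 and 15262 FPKM, but in the E16.5 library, with a squamous sum of 8725 FPKM, it was only 1.87. Cldn13, chosen in the same way, was measured at 1.74 FPKM at D1 and at no more than 0.589 FPKM elsewhere.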
